A study of Mus musculus with 4 samples.

Results

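The mitosis machinery was followed here across 4 mouse blood cell populations as 43 genes, listed by symbol, that build the spindle, compact and part the chromosomes, and divide the cell. All 43 had at least 1 probe set assigned to that gene alone, 98 probe sets in all, out of 18193 genes measured in the same way. The study prepared blood cells as nuclear donors for cloning by nuclear transfer, and profiled each donor population once on an Affymetrix array. Granulocytes came from bone marrow as cells of high granularity with strong Gr-1 staining. Haematopoietic progenitor cells (HPC) were lineage negative, c-Kit positive and Sca-1 negative. Long-term haematopoietic stem cells (LT-HSC) were lineage negative and positive for both c-Kit and Sca-1 without CD34, and short-term stem cells (ST-HSC) were the same gate with CD34. The lineage antibodies shared by HPC, LT-HSC and ST-HSC were against Ter119, the T cell antigens CD3, CD4 and CD8, the B cell antigen B220, and the myeloid antigens CD11b and Gr-1, and the labels name neither strain nor age of the mice. Cells had been frozen and thawed, were picked by their looks, and were put in batches of 50 or 100 inside emptied zonae pellucidae. Each array therefore stands for the amplified RNA of 50 to 200 cells.

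Entry into mitosis is driven by Cdk1 bound to A- and B-type cyclins, helped by the Polo and Aurora kinases. Condensins and topoisomerase II then compact the chromosomes, kinetochores tie them to spindle microtubules, and the spindle checkpoint holds the anaphase-promoting complex (APC/C) back until every pair is attached. Most of these transcripts are made only late in the cell cycle, so in blood they are abundant in dividing progenitors, scarce in quiescent stem cells, and lost as granulocyte precursors stop dividing and mature. Many of their promoters carry a CHR element (cell cycle genes homology region), bound by the DREAM and MuvB complexes, downstream of CCAAT boxes, which are bound by NF-Y.

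Promoter sequence was available for 37 of the 43 genes in the RefSeq table for the mouse build GRCm38.p6, which gives 250 bases before and 50 bases after the gene start, and a gene with several starts counted as holding a motif when any of its windows did. The 5 promoters below are shown because their genes stand for the different patterns described afterwards: Cdk1 and Ncapd2 were low in granulocytes, Ccnb2 was low in LT-HSC, and Cenpf and Ube2c were not lower in granulocytes. All are printed 5′ to 3′ on the strand of the gene. Capitals mark TTTGAA or TTTAAA (CHR type), CCAAT (NF-Y box), and GGCGGGAA, TTGGCGC or TTCCCGC (E2F type), read on either strand, so that ATTGG and TTCAAA stand for CCAAT and TTTGAA on the other strand. CCAAT matches can overlap each other, as in Ube2c, or an E2F-type match, as in Ect2. The Cdk1 promoter lies at chr10:69352863-69353162 on the minus strand and Ncapd2 at chr6:125191537-125191836 on the minus strand. Ccnb2 lies at chr9:70421505-70421804 on the minus strand, Cenpf at chr1:189688037-189688336 on the minus strand, and Ube2c at chr2:164769679-164769978 on the plus strand.
Cdk1: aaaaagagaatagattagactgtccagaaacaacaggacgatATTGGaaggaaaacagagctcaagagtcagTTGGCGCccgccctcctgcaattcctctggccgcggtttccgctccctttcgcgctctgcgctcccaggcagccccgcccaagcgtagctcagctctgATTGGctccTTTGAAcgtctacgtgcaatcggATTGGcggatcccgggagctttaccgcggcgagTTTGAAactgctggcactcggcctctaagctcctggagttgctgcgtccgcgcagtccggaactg
Ncapd2: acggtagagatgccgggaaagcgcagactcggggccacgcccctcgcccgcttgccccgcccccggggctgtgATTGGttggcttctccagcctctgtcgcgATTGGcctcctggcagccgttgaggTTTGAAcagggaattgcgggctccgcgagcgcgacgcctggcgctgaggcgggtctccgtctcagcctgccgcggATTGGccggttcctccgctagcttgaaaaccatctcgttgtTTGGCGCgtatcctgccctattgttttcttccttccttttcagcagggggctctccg
Ccnb2: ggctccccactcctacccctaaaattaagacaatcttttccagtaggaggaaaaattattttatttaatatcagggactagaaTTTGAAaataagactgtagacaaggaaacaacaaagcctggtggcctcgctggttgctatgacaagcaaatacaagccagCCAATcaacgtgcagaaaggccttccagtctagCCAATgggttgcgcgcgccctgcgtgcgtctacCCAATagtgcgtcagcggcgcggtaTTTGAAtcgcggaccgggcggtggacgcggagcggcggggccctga
Cenpf: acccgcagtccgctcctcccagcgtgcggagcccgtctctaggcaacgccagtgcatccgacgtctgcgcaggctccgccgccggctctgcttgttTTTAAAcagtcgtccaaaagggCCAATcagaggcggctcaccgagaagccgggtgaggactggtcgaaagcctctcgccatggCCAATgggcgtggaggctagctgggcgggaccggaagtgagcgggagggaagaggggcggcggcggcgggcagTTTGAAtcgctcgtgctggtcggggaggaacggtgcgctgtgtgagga
Ube2c: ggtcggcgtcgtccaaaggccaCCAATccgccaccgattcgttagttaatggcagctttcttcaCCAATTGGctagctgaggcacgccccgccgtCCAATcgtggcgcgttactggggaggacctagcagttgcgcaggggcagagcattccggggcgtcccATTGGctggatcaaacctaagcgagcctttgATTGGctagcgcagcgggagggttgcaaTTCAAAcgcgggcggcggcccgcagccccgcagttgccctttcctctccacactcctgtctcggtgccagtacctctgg

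In these windows Cdk1 has CHR-type matches that start 71 and 15 bases before the gene start, with CCAAT boxes at −208, −80 and −48. Ccnb2, which encodes cyclin B2, has 3 CCAAT boxes at −87, −54 and −21 and a CHR-type match at position 5, just inside the transcript. Cenpf has its nearest CHR-type match at position 3 and Ube2c at −29. The Ncapd2 window differs in having its CHR-type match at −123 and an E2F-type match at −7. So the genes that were low in granulocytes and those that were not both carry CHR-type and CCAAT matches.

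Across the 37 promoters, 31 (83.8%) held a CHR-type match, against 30.6% of the promoters of 27025 genes in the table. The TTTGAA form made up most of this, in 29 members (78.4%, against 20.2% of all genes), while TTTAAA was in 8 (21.6%, against 14.9%). A CCAAT box was in 28 members (75.7%, against 41.1%), and 18 (48.6%, against 13.3%) had at least 2. The matches lay close to the gene start: 27 of 37 (73.0%) had a CHR-type match from −50 to 50, against 9.54% of all genes, while from −250 to −151 the shares were 18.9% and 15.1%. CCAAT was in 20 members from −150 to −51 (54.1%, against 21.5%) and in 19 from −50 to 50 (51.4%, against 15.6%), so it was about as common just upstream as in the window where CHR-type matches were densest. E2F-type matches were rarer, in 6 members (16.2%, against 7.79%), and GGCGGGAA was in 0 members, against 2.52% of all genes. Each GGCGGGAA match also contains TTCCCGC on the other strand, so these 2 forms were not counted as separate sites. Over the 17491 protein-coding genes alone, the shares were 28.2% for the CHR type, 42.3% for CCAAT and 9.94% for the E2F type.

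A CHR-type and a CCAAT match occurred together in 27 of the 37 promoters. Mad2l1, Nuf2, Nusap1 and Pttg1 had none of the motifs in this window, which says only that these letters are not there. Of the 16 promoters whose genes were at least 2-fold lower in granulocytes than on each other array, 13 had a CHR-type match and 12 a CCAAT box, against 18 and 16 of the 21 other members. Of the 10 whose genes were at least 2-fold lower in LT-HSC than in ST-HSC, 8 had a CHR-type match, against 23 of the 27 other members. E2F-type matches were in 4 of the 16 and 2 of the 21 in the granulocyte comparison, and in 1 of the 10 and 5 of the 27 in the LT-HSC comparison. Aurkb, Ccna2, Tpx2, Smc4, Incenp and Kif20a had no entry in the promoter table.

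**Figure D1:**
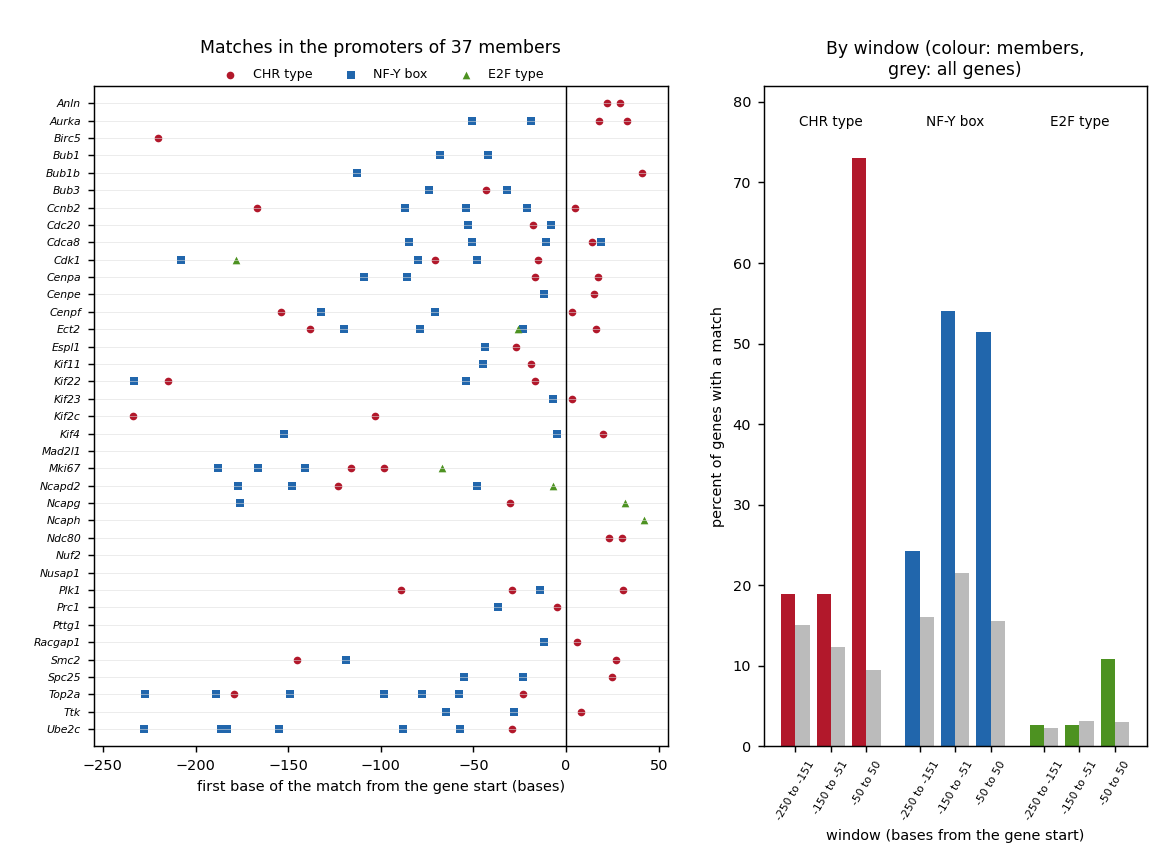
Motif matches in the promoters of 37 mitosis genes. Left, the first base of each match (bases from the gene start, a row per gene, 1 window each) for CHR type (red circles), NF-Y box (blue squares) and E2F type (green triangles). Right, the percent of members (coloured bars) and of all genes (grey bars) with a match in each window: the CHR type from −50 to 50 stands at 73.0% of members against 9.54% of all genes.

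The 4 arrays shared 1 scale, with a 2% trimmed mean of 500.00 on each, and between 48.7% and 52.5% of probe sets were above the floor. Here the floor is 120.1, the median of all values, and a signal under it was set to it before a fold change was taken, so that such folds read "at least". Control probe sets for absent transcripts reached 138 in granulocytes, which is above this floor. They reached 90.3 for HPC, 70.2 for LT-HSC and 52.5 for ST-HSC. The granulocyte array held all 10 granulocyte markers above the floor. Summed promyelocyte signal over 5 genes was 871 there, against 64896 for HPC, 3963 for LT-HSC and 22189 for ST-HSC. The LT-HSC array departed from its gate: the summed granulocyte marker signal was 22755 there, 5.34% of that in granulocytes, against 658 in ST-HSC, with 6 of 10 markers above the floor and Mmp8, Mmp9, Cxcr2 and Itgam under it. The summed signal of 7 pre-B markers was 14011 in LT-HSC and 7277 in HPC, against 1317 in granulocytes and 634 in ST-HSC. Above the floor were 7 of them in LT-HSC, 6 in HPC, 2 in granulocytes and 1 in ST-HSC, so pre-B signal was not particular to LT-HSC. Results that use the LT-HSC array as a comparator are also given without it. Of 5 monocyte markers, 3 were higher in HPC than in the stem cell gates, with sums of 16988 for HPC, against 967 for LT-HSC and 1225 for ST-HSC. Summed signals of 7 T and NK markers lay at 4829 in granulocytes, of which Cd3d gave 3890, and between 1115 and 2806 on the other arrays. Of the 7, 1 was called higher in granulocytes and 1 lower. Summed signals of 8 stem and progenitor markers lay at 1255 in granulocytes and between 23712 and 43052 on the other arrays, and those of 7 erythroid markers between 3844 and 12286. Sums of 8 oocyte and 5 cumulus cell markers, measured because of the zonae, lay between 536 and 1183 and between 285 and 977. The Actb 3′ to 5′ signal ratio was 5.75 in granulocytes and 12.2 to 16.1 on the other arrays, while that of Gapdh was 12.4 in granulocytes, against 17.8 for HPC, 14.9 for LT-HSC and 12.4 for ST-HSC. The part of these markers and of these ratios in the granulocyte and HPC results was not tested.

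The median signal over the 43 mitosis genes was 353 in granulocytes, against 1480 for HPC, 640 for LT-HSC and 1320 for ST-HSC. Granulocytes gave the highest signal for 4 of the genes, HPC for 27, LT-HSC for 2 and ST-HSC for 10. The lowest signal was in granulocytes for 29 genes, in LT-HSC for 12 and in ST-HSC for 2, and never in HPC. The mitosis genes thus ran, by their median, from HPC and ST-HSC through LT-HSC down to granulocytes. Signals of different probe sets are not comparable as amounts, so these medians describe arrays and not genes. With 1 array per population no test was possible. As a yardstick, the log2 differences of granulocytes from the other arrays were compared between probe sets of the same gene. Their SD around the gene's mean was 0.85 over 2874 genes, and 0.69 over the 11 members that allowed it. Only probe sets above the floor on every array compared were used, so genes such as Cdk1 and Aurkb are not covered. This spread is between probe sets on the same arrays, and does not measure variation between cell pools, amplifications or arrays. The same SD over 19 members was 0.36 for HPC against the stem cell gates and 0.58 for LT-HSC against ST-HSC. In pooled cells of this kind, fewer dividing cells and less RNA of these genes in each cell cannot be told apart.

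**Figure D2:**
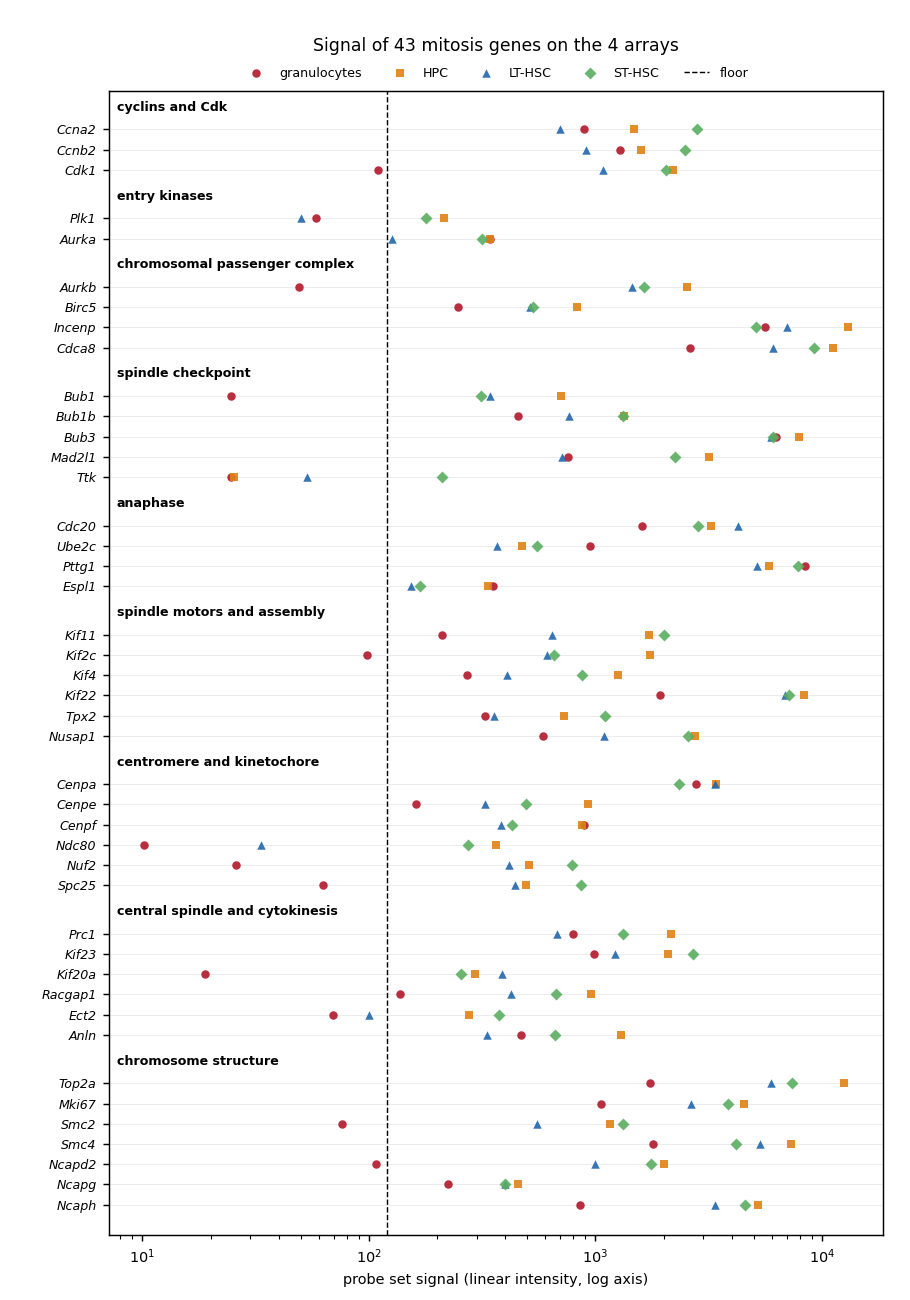
Signal of each of the 43 mitosis genes on each array (intensity on a log axis, genes by role; 1 probe set per gene, each point is 1 array, the dashed line marks the floor of 120.1). For 29 of the 43 genes the granulocyte point lies left of the others, with a member median of 353 in granulocytes, against 1480 for HPC, 640 for LT-HSC and 1320 for ST-HSC.

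In granulocytes, 19 of the 43 mitosis genes (44.2%) had a signal at least 2-fold lower than on each of the other 3 arrays, while 12.6% of all genes did. The count was 9 (20.9%, against 7.05% of all genes) with the floor at the 75th percentile and 11 (25.6%, against 8.57%) with the median over each gene's probe sets. None of the 43 was at least 2-fold higher than on each other array, where 8.72% of all genes were. The median log2 difference of the members from the mean of the other arrays was −1.27, against 0.00 over all genes and −0.04 over genes above the floor on some array. At least 4-fold lower were 5 members (11.6%, against 5.22% of all genes): Cdk1, Aurkb, Kif2c, Smc2 and Ncapd2. Against single arrays, 32 members were lower than in HPC (74.4%, against 18.9% of all genes), 20 lower than in LT-HSC (46.5%, against 19.5%) and 28 lower than in ST-HSC (65.1%, against 19.0%). Without the LT-HSC array, a choice made after seeing the data, 27 members (62.8%, against 14.5% of all genes) were at least 2-fold lower in granulocytes than in both HPC and ST-HSC. The genes added were Bub1b, Mad2l1, Kif4, Tpx2, Nusap1, Ndc80, Kif23 and Ect2. The counts by role below use all 3 other arrays and so depend in part on the LT-HSC array.

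**Figure D3:**
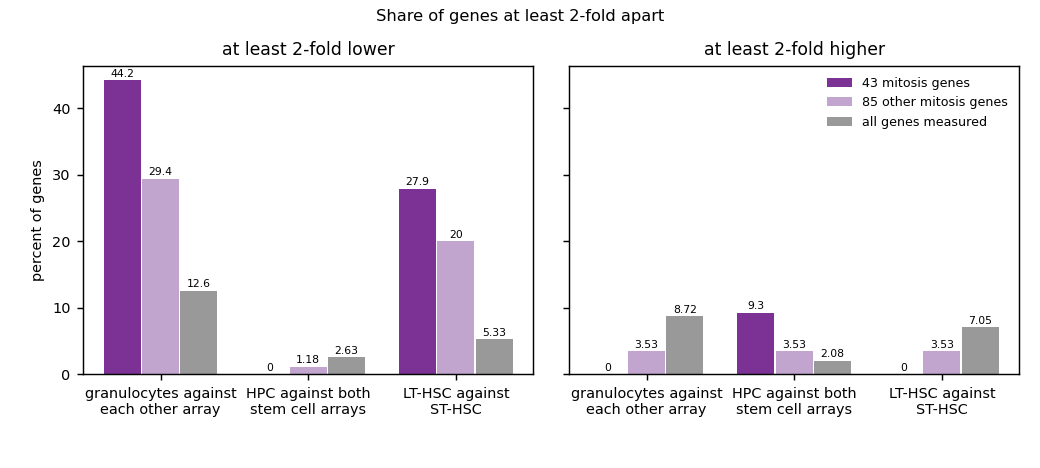
Percent of the 43 mitosis genes (dark bars), of 85 other mitosis genes (pale bars) and of all genes (grey bars) that were at least 2-fold lower or higher in each comparison. The members stand at 44.2% lower in granulocytes against 12.6% of all genes, and at 27.9% lower in LT-HSC than in ST-HSC against 5.33%.

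By the rule with all 3 other arrays, chromosome structure was the group with most members low in granulocytes, 6 of 7. Its median log2 difference was −2.24 (−0.78 with the median over each gene's probe sets). Without the LT-HSC array, every spindle motor and assembly gene was called low, while Ncapg of chromosome structure was still not called. Condensin I is the ring complex that compacts mitotic chromosomes, built from the ATPases Smc2 and Smc4 and the subunits Ncapd2, Ncapg and Ncaph. The Ncapd2 signal was 107 on the granulocyte array, against 2005 for HPC, 995 for LT-HSC and 1761 for ST-HSC. That of Smc2 was 75.9 in granulocytes, against 1154 for HPC, 555 for LT-HSC and 1327 for ST-HSC. Both granulocyte signals were under the floor, giving folds to the nearest array of at least 8.28 for Ncapd2 and at least 4.62 for Smc2. Ncaph read 859 in granulocytes, against 5215 for HPC, 3384 for LT-HSC and 4592 for ST-HSC, 3.94-fold under the nearest. Smc4 read 1792 in granulocytes, against 7309 for HPC, 5338 for LT-HSC and 4183 for ST-HSC, 2.33-fold under the nearest. Only Ncapg missed the 2-fold rule, at 224 in granulocytes, against 454 for HPC, 397 for LT-HSC and 398 for ST-HSC, although it too was lowest in granulocytes. Top2a, the topoisomerase that untangles sister DNA, had 1745 in granulocytes, against 12543 for HPC, 5983 for LT-HSC and 7395 for ST-HSC. Mki67, which coats mitotic chromosomes and is the common stain for cycling cells, had 1056 in granulocytes, against 4526 for HPC, 2650 for LT-HSC and 3836 for ST-HSC. Their nearest folds were 3.43 for Top2a and 2.51 for Mki67, and both were still far above the floor in granulocytes.

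The chromosomal passenger complex corrects faulty attachments, with Aurkb (Aurora B) as its kinase, Incenp as scaffold, and Birc5 (survivin) and Cdca8 (borealin) as the parts that hold it at the centromere. The Aurkb signal was 48.9 on the granulocyte array, against 2540 for HPC, 1447 for LT-HSC and 1636 for ST-HSC. It was under the floor in granulocytes alone, at least 12.0-fold under the nearest array. Cdca8 had 2621 in granulocytes, against 11179 for HPC, 6052 for LT-HSC and 9223 for ST-HSC, and Birc5 had 247 in granulocytes, against 833 for HPC, 515 for LT-HSC and 532 for ST-HSC. These were 2.31-fold and 2.08-fold under the nearest array. Incenp did not follow them, with 5612 in granulocytes, against 12975 for HPC, 7009 for LT-HSC and 5131 for ST-HSC. Its granulocyte signal lay inside the range of the stem cell gates. A dimmer Incenp probe set was lowest in granulocytes but not called, with 449 there, against 684 for HPC, 558 for LT-HSC and 499 for ST-HSC. In all, 3 of 4 members of the complex were called low.

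Cdk1, the kinase whose activation starts mitosis, was called low in granulocytes, but its cyclins were not called. The Cdk1 signal was 110 on the granulocyte array, against 2204 for HPC, 1076 for LT-HSC and 2044 for ST-HSC, at least 8.96-fold under the nearest. Ccna2 (cyclin A2) had 892 in granulocytes, against 1480 for HPC, 701 for LT-HSC and 2822 for ST-HSC. Ccnb2 (cyclin B2) had 1285 in granulocytes, against 1593 for HPC, 909 for LT-HSC and 2474 for ST-HSC. For both cyclins the granulocyte signal lay between those of LT-HSC and HPC. Without the LT-HSC array they were still not called, Ccna2 at 1.66-fold and Ccnb2 at 1.24-fold under the nearest array. The second Ccna2 probe set was lowest in granulocytes, by less than 2-fold. It had 510 in granulocytes, against 995 for HPC, 770 for LT-HSC and 763 for ST-HSC. The entry kinases Plk1 (the Polo kinase) and Aurka (Aurora A, which works at centrosomes) were not called either. Aurka read 341 in granulocytes, against 342 for HPC, 127 for LT-HSC and 317 for ST-HSC, while Plk1 was dim everywhere, with 58.5 in granulocytes, against 215 for HPC, 50.3 for LT-HSC and 178 for ST-HSC.

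Spindle motors and assembly factors gave 3 of 6 members low in granulocytes, with a median log2 difference of −1.85. Kif11 (Eg5) slides spindle poles apart, Kif2c (MCAK) takes microtubules down at their ends, and Kif22 pushes chromosome arms. Kif22 had 1932 in granulocytes, against 8327 for HPC, 6845 for LT-HSC and 7136 for ST-HSC, 3.54-fold under the nearest. Kif11 had 211 in granulocytes, against 1723 for HPC, 640 for LT-HSC and 2005 for ST-HSC, 3.04-fold under the nearest. Kif2c had 97.8 in granulocytes, against 1742 for HPC, 611 for LT-HSC and 654 for ST-HSC, at least 5.08-fold under the nearest. For Kif11 and Kif2c not every probe set ran the same way. One further Kif11 probe set had 409 in granulocytes, against 71.1 for HPC, 140 for LT-HSC and 151 for ST-HSC. One further Kif2c probe set had 244 in granulocytes, against 141 for HPC, 132 for LT-HSC and 133 for ST-HSC. These dimmer probe sets put granulocytes highest, so the direction for these motors depends on which probe set is read. Kif4 (the chromokinesin), Tpx2 (which carries Aurora A to the spindle) and Nusap1 (a microtubule bundler) were lowest in granulocytes too, but LT-HSC lay less than 2-fold above them.

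At the centromere and kinetochore 3 of 6 members were low in granulocytes. Nuf2, Spc25 and Ndc80 belong to the NDC80 complex, the part of the kinetochore that grips microtubules. Nuf2 had 25.8 in granulocytes, against 508 for HPC, 416 for LT-HSC and 786 for ST-HSC, and Spc25 had 62.5 in granulocytes, against 492 for HPC, 440 for LT-HSC and 862 for ST-HSC. With granulocytes under the floor, these were at least 3.46-fold and at least 3.66-fold. Ndc80 had 10.2 in granulocytes, against 365 for HPC, 33.3 for LT-HSC and 275 for ST-HSC, so granulocytes and LT-HSC were both under the floor and the 2-fold rule was not met. Cenpe, the motor that carries chromosomes to the spindle equator, had 161 in granulocytes, against 931 for HPC, 327 for LT-HSC and 493 for ST-HSC. Its second probe set had 506 in granulocytes and 33.6 to 53.8 on the other arrays, the opposite order. Cenpa, the histone H3 variant that marks centromeres, varied little, with 2784 in granulocytes, against 3391 for HPC, 3357 for LT-HSC and 2340 for ST-HSC.

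Of the spindle checkpoint, only the kinase Bub1 was called low by its brightest probe set. It had 24.6 in granulocytes, against 704 for HPC, 344 for LT-HSC and 314 for ST-HSC, at least 2.62-fold under the nearest. Its second probe set was not called, with 144 in granulocytes, against 467 for HPC, 62.4 for LT-HSC and 232 for ST-HSC. Bub1b (BubR1, part of the complex that inhibits Cdc20) had 457 in granulocytes, against 1333 for HPC, 764 for LT-HSC and 1321 for ST-HSC, 1.67-fold under the nearest. A further Bub1b probe set was called low, with 25.8 in granulocytes, against 571 for HPC, 390 for LT-HSC and 844 for ST-HSC. Which of these 2 genes is called thus depends on the probe set read. Mad2l1 (MAD2, the other inhibitor of Cdc20) had 757 in granulocytes, against 3166 for HPC, 713 for LT-HSC and 2236 for ST-HSC. So both inhibitors were low next to HPC and ST-HSC, but close to LT-HSC in the case of Mad2l1. Bub3, which also acts outside mitosis, lay between 5987 and 7904 on all arrays. The checkpoint kinase Ttk (MPS1) was above the floor in ST-HSC alone, with 24.7 in granulocytes, against 25.5 for HPC, 53.1 for LT-HSC and 210 for ST-HSC.

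Of the 6 central spindle and cytokinesis genes 2 were low. Racgap1, which with Kif23 forms the centralspindlin complex, had 137 in granulocytes, against 957 for HPC, 422 for LT-HSC and 671 for ST-HSC, 3.09-fold under the nearest. That granulocyte signal was no higher than the 138 reached by controls for absent transcripts, so the fold is uncertain. Kif20a, a motor of the central spindle, had 18.9 in granulocytes, against 295 for HPC, 388 for LT-HSC and 254 for ST-HSC, at least 2.11-fold under the nearest. Prc1 (which bundles the central spindle), Kif23, Ect2 (the exchange factor that switches on RhoA) and Anln (anillin, a scaffold of the contractile ring) did not meet the rule. For Prc1 and Anln the LT-HSC signal was even under that of granulocytes, and for Ect2 both were under the floor. Prc1, for example, had 798 in granulocytes, against 2161 for HPC, 674 for LT-HSC and 1320 for ST-HSC.

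Of the 4 anaphase genes, 0 were called in granulocytes, and their median log2 difference was 0.61. That median was −0.09 with the arrays scaled to hybridization controls and −0.05 with the first probe set of each gene by name, so its sign is not settled. Ube2c, the E2 enzyme of the APC/C, had 947 in granulocytes, against 474 for HPC, 368 for LT-HSC and 552 for ST-HSC, 1.72-fold over the nearest. Pttg1 (securin, the inhibitor of separase) had 8384 in granulocytes, against 5856 for HPC, 5149 for LT-HSC and 7857 for ST-HSC. For both, granulocytes were highest and ST-HSC next. A further Pttg1 probe set ran the other way and was called lower, with 372 in granulocytes, against 789 for HPC, 930 for LT-HSC and 1036 for ST-HSC. Espl1 (separase, which cuts cohesin) had 353 in granulocytes, against 336 for HPC, 154 for LT-HSC and 168 for ST-HSC. With the kinetochore protein Cenpf, at 889 in granulocytes, against 876 for HPC, 382 for LT-HSC and 428 for ST-HSC, these were the 4 members highest in granulocytes. Pttg1, Espl1 and Cenpf exceeded the nearest array by only 1.07, 1.05 and 1.02-fold, and with scaling to hybridization controls only Ube2c stayed above all 3 arrays, by 0.15 on the log2 scale. Cdc20, the APC/C activator, had 1598 in granulocytes, against 3224 for HPC, 4244 for LT-HSC and 2847 for ST-HSC, lowest in granulocytes and 1.78-fold under the nearest.

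**Figure D4:**
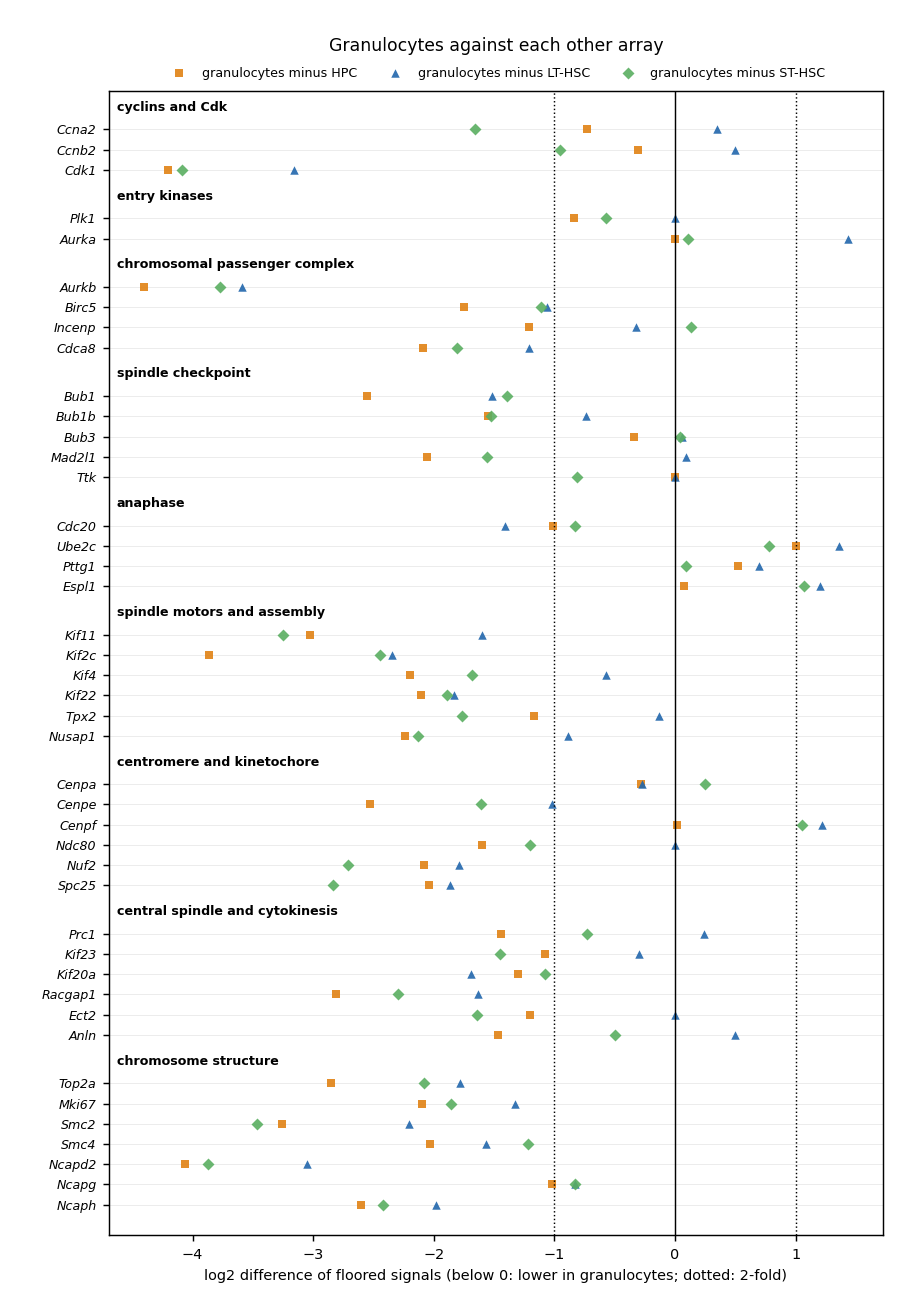
Log2 difference of granulocytes from each other array for the 43 mitosis genes, by role (signals under 120.1 set to it; points are the differences from HPC, LT-HSC and ST-HSC). The 19 called genes have all 3 points at or below −1, and Ube2c, Pttg1, Espl1 and Cenpf have all 3 above 0.

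Other probe sets bore on how far these calls rest on 1 probe set. Of the 19 genes called low in granulocytes, 14 had a further probe set above the floor on some array. For Aurkb, Cdca8, Kif22 and Ncaph a further probe set was called low as well, such as that of Aurkb with 79.1 in granulocytes, against 1763 for HPC, 963 for LT-HSC and 1003 for ST-HSC. For Kif11, Kif2c, Cenpe and Spc25 a further probe set had the opposite sign. Among genes not called, a further probe set of Bub1b and of Pttg1 was called low. Of all 98 probe sets, 85 were above the floor on some array. Of the 98, 25 were called lower in granulocytes (25.5%, against 9.69% of all probe sets) and 2 higher (2.04%, against 8.14%).

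HPC had the higher signal more often than either stem cell gate, and the distance was mostly to LT-HSC. Against LT-HSC, 21 of the 43 genes (48.8%) were at least 2-fold higher in HPC, against 5.27% of all genes, and 0 were lower, against 6.50%. Against ST-HSC, 5 (11.6%) were higher, against 6.41% of all genes, and 0 lower, against 6.08%. The median log2 difference was 0.89 for HPC over LT-HSC and 0.22 for HPC over ST-HSC. Higher in HPC than in both gates were 4 genes (9.3%, against 2.08% of all genes), and 0 were lower than in both, against 2.63%. These 4 were Bub1, Espl1, Kif2c and Cenpf, whose signals are given above, at 2.05, 2.0, 2.66 and 2.04-fold over the nearest gate. Bub1, Espl1 and Cenpf lie just over the 2-fold line, and against ST-HSC alone Incenp joined the 4. Of the 4, 3 had a further probe set above the floor, which met the same call for Bub1 and had the opposite sign for Kif2c. In sign alone, HPC exceeded LT-HSC for 40 of 43 genes, against 56.0% of all genes. HPC exceeded ST-HSC for 31 of 43, against 53.7% of all genes, and the excess over ST-HSC was small for most.

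LT-HSC carried less mitosis signal than ST-HSC. Of the 43 genes, 12 (27.9%) were at least 2-fold lower in LT-HSC, against 5.33% of all genes, and 0 were at least 2-fold higher, against 7.05%. With the median over each gene's probe sets the count lower was 7 (16.3%, against 4.01%), and over single probe sets the median log2 difference was −0.14. The median log2 difference was −0.61. Over all genes LT-HSC had the higher signal for 47.7%, while it had the lower signal for 37 of the 43 members. The exceptions were Kif20a, Cdc20, Cenpa, Incenp, Smc4 and Bub1, each by less than 2-fold. Among HPC, LT-HSC and ST-HSC, LT-HSC had the lowest signal for 36 members (83.7%), against 37.2% of all genes. When both HPC and ST-HSC were required to exceed LT-HSC 2-fold, a comparison chosen after seeing the data, 10 members were low (23.3%, against 1.75% of all genes). Those 10 were Ccna2, Aurka, Mad2l1, Kif11, Kif4, Tpx2, Nusap1, Ndc80, Ect2 and Smc2. Granulocyte and pre-B markers were also higher in LT-HSC than in ST-HSC, with the sums given above. Of 5 promyelocyte markers, 2 were at least 2-fold lower in LT-HSC than in ST-HSC and 0 higher. The part of all these markers in this difference was not tested.

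**Figure D5:**
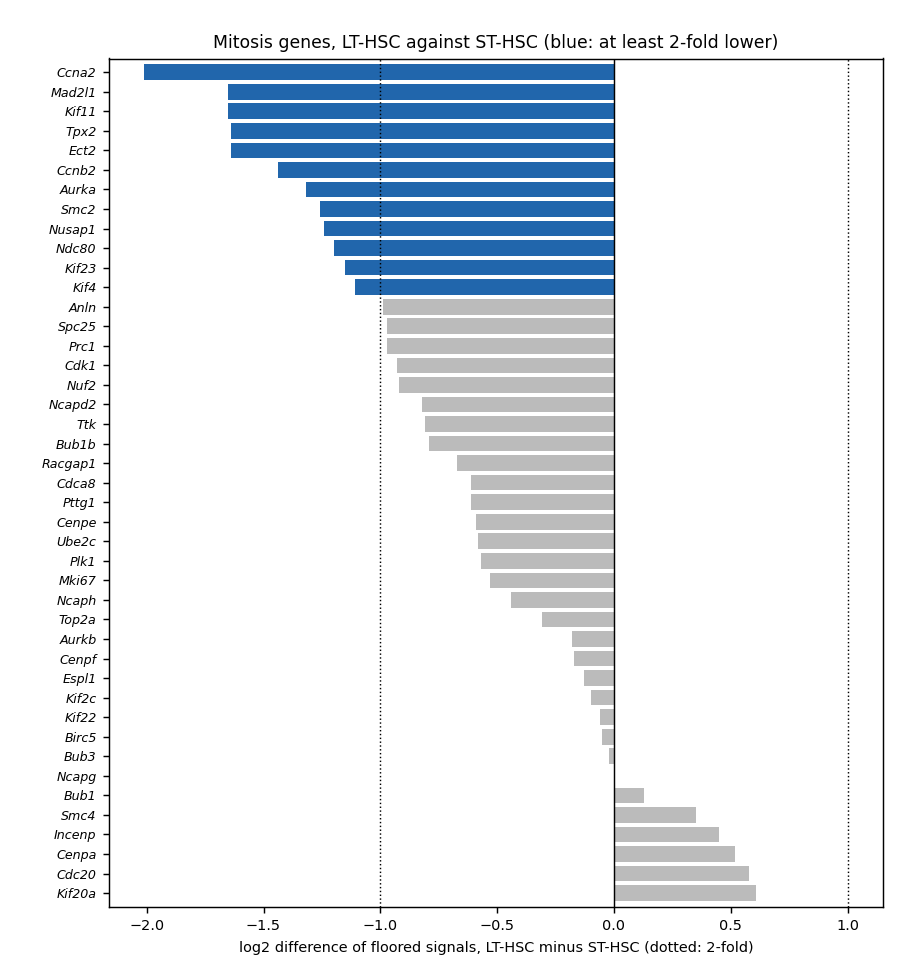
Log2 difference of LT-HSC from ST-HSC for each of the 43 mitosis genes, sorted by size (1 bar per gene; signals under 120.1 set to it; blue, at least 2-fold lower; dotted lines, 2-fold). The 12 blue bars end at or below −1, with Ccna2 lowest, and 37 of 43 genes had the lower signal in LT-HSC, Ncapg by a margin too small to show.

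Of the 12 genes low in LT-HSC, 6 were cyclins or spindle genes. Ccna2 was the 1 member at least 4-fold lower (0.682% of all genes were), with 701 in LT-HSC against 2822 in ST-HSC, or 4.02-fold. Its second probe set read 770 in LT-HSC against 763 in ST-HSC and showed no such difference. Ccnb2 had 909 in LT-HSC against 2474 in ST-HSC, 2.72-fold lower, while Cdk1 was 1.90-fold lower and so missed the rule. Of the spindle genes 4 of 6 were called, with a median log2 difference of −1.17. Kif11 had 640 in LT-HSC against 2005 in ST-HSC, 3.13-fold lower, and Tpx2 had 355 in LT-HSC against 1107 in ST-HSC, 3.12-fold lower. For both of these a further probe set had the opposite sign. Nusap1 had 1089 in LT-HSC against 2566 in ST-HSC, 2.36-fold lower, and Kif4 had 405 in LT-HSC against 874 in ST-HSC, 2.16-fold lower. Kif2c and Kif22, low in granulocytes, differed by less than 1.5-fold between the stem cell gates. With the median over each gene's probe sets in place of the brightest, the median log2 difference of the spindle group was 0.03.

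Elsewhere the LT-HSC calls were spread thinly. Mad2l1 of the checkpoint had 713 in LT-HSC against 2236 in ST-HSC, 3.14-fold lower, and Aurka had 127 in LT-HSC against 317 in ST-HSC, 2.50-fold lower. Kif23 of centralspindlin had 1216 in LT-HSC against 2702 in ST-HSC, 2.22-fold lower. Ect2 and Ndc80 were under the floor in LT-HSC. Ect2 had 99.9 in LT-HSC against 374 in ST-HSC, at least 3.11-fold lower, and Ndc80 had 33.3 in LT-HSC against 275 in ST-HSC, at least 2.29-fold lower. In chromosome structure only Smc2 was called, at 555 in LT-HSC against 1327 in ST-HSC, 2.39-fold lower, while the other 6 members had a smaller difference. No chromosomal passenger gene and no anaphase gene was called by its brightest probe set. The passenger group had a median log2 difference of −0.11, which was 0.07 when arrays were scaled to hybridization controls. A further Cdca8 probe set was called lower, with 256 in LT-HSC against 699 in ST-HSC, so the passenger count depends on which probe set is read. Chromosome structure, with 6 of 7 genes low in granulocytes, had 1 of 7 low in LT-HSC, and the passenger complex, with 3 of 4 low in granulocytes, had 0 of 4 low in LT-HSC. These counts are not independent, as both comparisons use the LT-HSC and ST-HSC arrays. A granulocyte call needs a signal at least 2-fold under LT-HSC, so a low LT-HSC signal makes that call harder to meet. Kif4, Tpx2 and Nusap1, low in LT-HSC, were called in granulocytes once the LT-HSC array was left out. No contrast between roles can therefore be drawn from these counts. Of the 12 genes, 6 had a further probe set above the floor, of which 4 (Ccna2, Kif11, Tpx2 and Smc2) had the opposite sign and 0 met the same call. Besides Cdca8, the uncalled genes Prc1 and Bub1b had a further probe set called lower in LT-HSC. That of Prc1 had 196 in LT-HSC against 594 in ST-HSC, and that of Bub1b 390 against 844.

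Beyond the members, 85 further mitosis genes were listed by complex and measured on the same arrays. In granulocytes 25 of them (29.4%) were lower than on each other array, between the 44.2% of members and the 12.6% of all genes. Higher were 3 (3.53%, against 8.72% of all genes). Condensin II, the nuclear sister of condensin I, was low throughout, in 3 of 3 subunits. Ncapg2 had 48.8 in granulocytes, against 834 for HPC, 862 for LT-HSC and 1190 for ST-HSC, and Ncapd3 had 263 in granulocytes, against 2285 for HPC, 2233 for LT-HSC and 2412 for ST-HSC. Ncaph2 had 661 in granulocytes, against 1551 for HPC, 2352 for LT-HSC and 1893 for ST-HSC, so of the subunits that the condensins do not share only Ncapg missed the rule. Further kinetochore genes were low in 7 of 17, APC/C subunits in 5 of 14 with 1 higher (Anapc10), spindle and centrosome genes in 3 of 16, regulators of mitotic entry and exit in 4 of 13 with 2 higher, and cohesin, the ring that holds sister chromatids, in 2 of 10. The genes higher in granulocytes included Cks2, a small partner of Cdk1, and Cdc25b, the phosphatase that activates it. Cks2 had 14629 in granulocytes, against 6294 for HPC, 4260 for LT-HSC and 5725 for ST-HSC. Cdc25b had 1034 in granulocytes, against 234 for HPC, 186 for LT-HSC and 508 for ST-HSC.

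Of 12 regulators of these genes' transcription, 1 was low in granulocytes (8.33%, against 12.6% of all genes). That gene was Lin9, a core subunit of DREAM and MuvB, with 23.5 in granulocytes, against 705 for HPC, 382 for LT-HSC and 325 for ST-HSC. Foxm1, which activates late cell cycle genes together with MuvB, had 493 in granulocytes, against 673 for HPC, 825 for LT-HSC and 504 for ST-HSC. Between LT-HSC and ST-HSC, 17 of the 85 genes (20.0%, against 5.33% of all genes) were lower and 3 (3.53%, against 7.05%) higher in LT-HSC, with a median log2 difference of −0.13. Those lower included Plk4, the kinase that starts centriole copying, with 240 in LT-HSC against 1640 in ST-HSC. Wee1, the kinase that restrains Cdk1, had 943 in LT-HSC against 2395 in ST-HSC, and Cdca5 (sororin), which protects cohesion, had 1900 in LT-HSC against 8527 in ST-HSC. Rbl1 (p107), a pocket protein of DREAM, had 538 in LT-HSC against 1883 in ST-HSC. Cenpt, Ska2 and Lin37 were the 3 higher in LT-HSC, Cenpt with 3212 in LT-HSC against 960 in ST-HSC. HPC exceeded both stem cell gates for 3 of the 85 (Cenpi, Knl1 and Ska1; 3.53%, against 2.08% of all genes) and was lower for 1 (Cdc14b; 1.18%, against 2.63%), both near the share over all genes.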

How the data were processed

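Each of the 4 populations was measured once on a single-colour Affymetrix array, after 2 rounds of linear amplification per the labels' protocols. The authors deposited linear intensity per probe set, and how it was summarised, with which software, is not given in the sources used here. No further scaling was applied. GEO's platform annotation gives 1 gene symbol for 34945 of the 45101 probe sets, 64 of which are controls and were not used. Each of 18193 genes was represented by its probe set of highest mean log2 value, which for 20 members carries the suffix _x_at, _s_at or _a_at and may share sequence with other transcripts. Values under the floor of 120.1 were set to it before log2. A gene was called when it was at least 2-fold higher or lower than every array on the other side. There is 1 array per population, so no p-value is given and precision is limited by that number. The rule for named genes was all 43 members, plus the genes furthest apart in each list of further mitosis genes. The members and lists were chosen with earlier results of these data known. All 43 symbols matched RefSeq by Entrez number. The 37 promoters come from RefSeq (GRCm38.p6). Calling was run on simulated data as a check of the code. The planted changes were larger than 2-fold, in genes far above the floor, with noise smaller than the spread between probe sets. Calls close to 2-fold or resting on values under the floor were therefore not tested. Alternatives covered the floor, the scaling, the probe set choice and the fold. Python 3.11.15, numpy 2.4.6, pandas 2.3.3 and matplotlib 3.10.9 were used.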

Additional observations from a re-analysis of the deposited data

How the results depend on the processing

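No paired analysis was possible because each population has 1 array. The direction of the median of the 43 genes was kept in all 3 comparisons under every alternative tried. For granulocytes against the other arrays, the main values were 19 lower, 0 higher and a median log2 difference of −1.27. A pseudocount of 1 in place of the floor gave a median of −1.48, a floor at the 75th percentile 9 lower and −0.61, and one at the 25th percentile −1.48. The median over probe sets gave 11 lower and −0.80, the first probe set by name −0.93, and plain probe sets preferred −0.95. Probe sets as units gave 2 higher (2.04%, against 8.14% of all probe sets) and −0.47. Scaling to the 75th percentile gave 1 higher (2.33%, against 11.5% of all genes) and −1.04. Scaling to hybridization controls gave −1.88, and quantile normalization −1.01. A 4-fold rule gave 5 lower (11.6%, against 5.22% of all genes). A 1.5-fold rule gave 1 higher (2.33%, against 15.6%), and the mean of the other arrays as reference 1 higher (2.33%, against 12.7%). Without the LT-HSC array, an alternative chosen after seeing the data, the median was −1.47. For HPC against both stem cell gates (0 lower, 4 higher, median 0.57), a pseudocount of 1 gave 1 lower (2.33%, against 7.52% of all genes). The count higher was 2 with the floor at the 75th percentile (4.65%, against 0.89% of all genes). With probe sets as units it was 7 (7.14%, against 1.87% of all probe sets). With scaling to the 75th percentile it was 7 (16.3%, against 2.97% of all genes), and at 4-fold 0 (against 0.275%). At 1.5-fold it was 11 (25.6%, against 6.58%), and against the mean 11 (25.6%, against 4.16%). The median was 0.41 with the higher floor, 0.40 with the median over probe sets, 0.26 with probe sets as units, 0.72 with 75th percentile scaling and 0.22 without LT-HSC. For LT-HSC against ST-HSC (12 lower, 0 higher, median −0.61), the median over probe sets gave 7 lower and −0.41. A 4-fold rule gave 1 lower (2.33%, against 0.682% of all genes). A 1.5-fold rule gave 24 lower (55.8%, against 12.7%) and 1 higher (2.33%, against 14.3%). The median was −0.35 with the higher floor, −0.14 with probe sets as units, −0.72 with 75th percentile scaling and −0.48 with hybridization control scaling. The last scaling moved the median of all genes in granulocytes by −0.14, and lower calls made up 83.6% of all genes called there, against 59.0% as reported and 47.8% with 75th percentile scaling; for HPC that share was 41.2% with 75th percentile scaling against 55.8%, and for LT-HSC 28.7% and 53.1% against 43.1%. Sign changed for Kif2c in granulocytes (0.79 with the first or the plain probe set) and, between LT-HSC and ST-HSC, for Kif11 (0.18 with the median or the first probe set) and Smc2 (0.01 with the median, 0.3 with the first); these alternatives read other probe sets. Under all 10 alternatives other than the fold rule, Cdk1, Aurkb, Ncapd2 and Ncaph stayed called in granulocytes. Between LT-HSC and ST-HSC these were Ccna2, Ccnb2 and Mad2l1, and in HPC 0 genes. Several alternatives could not change these calls. Cdk1, Ccnb2 and Mad2l1 have 1 probe set each, and for Aurkb, Ccna2 and Ncapd2 only the median read another one. Leaving out genes under the floor on every array changed no member value. Ccna2 came to −1.0 at its weakest, on the 2-fold line. Signals near the floor limit what can be read for Plk1, Ttk and Ndc80.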
